A study of Chrysodeixis includens with 4 samples.

Results

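The 55 loci described here belong to 17 Trinity genes in which one assembled contig had the higher level in the head and another contig of the same gene had the higher level in the body. They come from caterpillars (third-instar larvae) of the soybean looper, Chrysodeixis includens, a crop pest of the family Noctuidae. RNA was sequenced from dissected heads (2 libraries) and from the remaining bodies (2 libraries), each library made from a pool of 5 larvae of a laboratory colony, with no treatment or genotype difference between the groups. For each of 19878 loci on assembled contigs, 1 FPKM value per tissue (fragments scaled to locus length and sequencing depth) and a q for head against body stand in the authors' deposited table. No value per library was used here, so no SD or n stands beside a level.

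Trinity, the assembler whose names the contigs carry, joins reads into contigs without a genome and puts contigs that share sequence under one gene name. The contigs of a Trinity gene can be splice variants of one gene, alleles, near-identical gene copies, or pieces of one transcript, and the name does not say which. In insects, alternative splicing and duplicated genes both give related transcripts that are used in different tissues, the nervous system of the head and the gut and fat body of the trunk among them. The table pairs no locus with a gene name, and no contig sequence was used here, so no function is given and no sequence is shown. For the same reason neither tissue could be checked against marker genes, and each direction relies on the order of the value columns.

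The members were chosen by the FPKM values themselves. Of the 15437 Trinity genes in the table, 3009 have 2 to 6 loci, 7208 loci in all. Among their loci of 300 bases or more, a locus is termed head-high if its head FPKM is 10 or more and at least 4 times its body FPKM, and body-high in the mirrored case. A gene is a member if it holds a head-high locus on one contig and a body-high locus on another. The opposite directions are therefore a condition of membership and not a result, and the folds and calls of head against body below are given as a description. In each Trinity gene the opposite pair is the head-high and the body-high locus whose smaller difference is greatest. Differences are log2((head FPKM + 1)/(body FPKM + 1)), positive where head is higher.

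Such genes were a small part of those that could have met the condition. In 414 Trinity genes of 2 to 6 loci at least 2 loci on different contigs were head-high or body-high. In 298 of them these loci were all body-high, in 99 they were all head-high, and in 17 (4.11%) they were of both kinds. The 17 genes hold 20 head-high loci, 18 body-high loci and 17 loci that are neither, on 53 contigs. They have more loci than the other genes of that size range. Of the 17 genes, 3 have 2 loci, 8 have 3, 5 have 4 and 1 has 5, so that 17.6% have 2 loci, against 73.6% of the other 2992 genes. A gene with more loci has more chances to meet the condition.

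The head-high loci had a median of 32.5 FPKM in head (10.3 to 230) and 2.44 FPKM in body (0 to 49.6). The body-high loci had a median of 40.9 FPKM in body (11.7 to 2253) and 1.998 FPKM in head (0 to 174). Most were moderately abundant: the median head-high locus stood at percentile 85.0 of head levels among the 17823 loci of 300 bases or more, and the median body-high locus at percentile 80.9 of body levels. The limit of 10 FPKM on these same levels sets a floor to the percentiles, and the lowest were 58.0 and 55.3. Leaving aside loci listed at 0, the median fold was 7.76 over 17 head-high loci and 15.0 over 15 body-high loci.

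**Figure D1:**
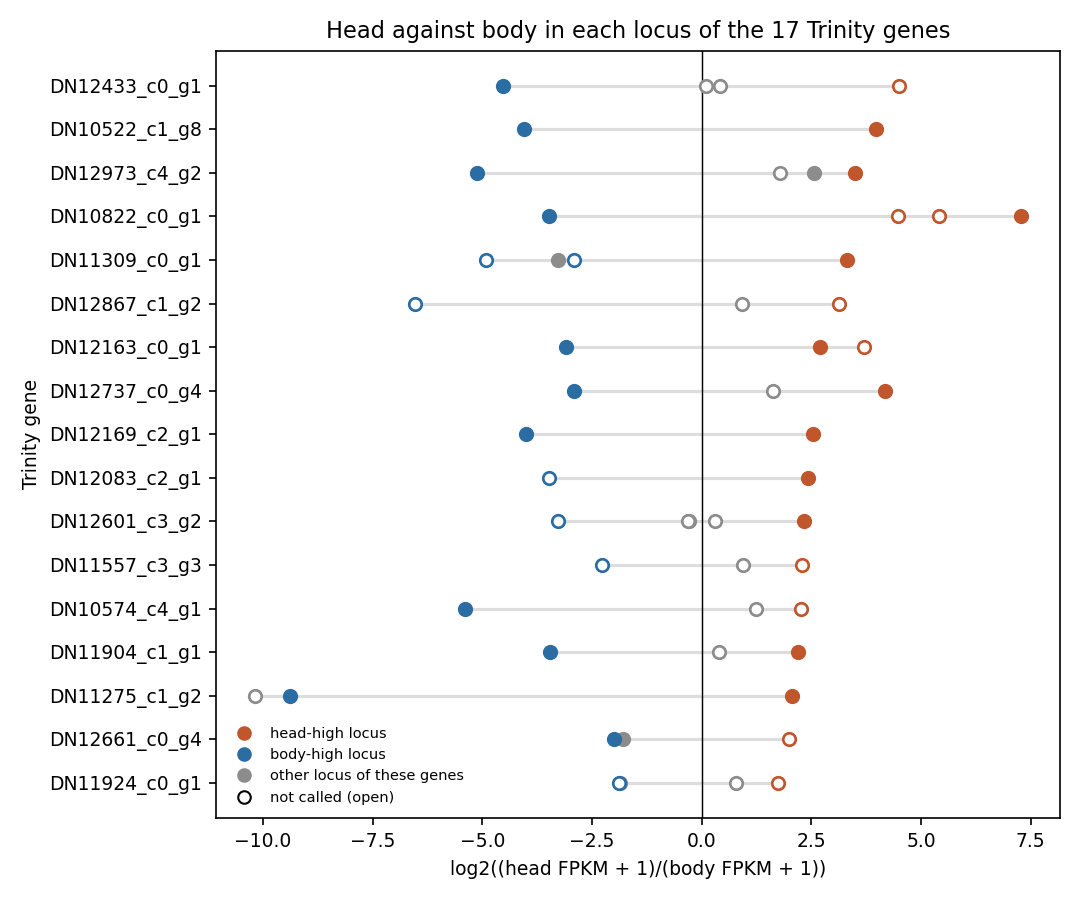
Difference between head and body for each locus (horizontal axis, log2 ratio with 1 FPKM added, positive where head is higher) in each of the 17 Trinity genes (rows, ordered by the smaller difference of the opposite pair). Orange points are head-high, blue body-high and grey other loci, filled where the authors' q is under 0.05; the opposite pairs reach at least 1.74 on both sides of 0, by the choice of genes.

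The authors' deposited table calls 26 of the 54 tested member loci at a q under 0.05, 12 higher in head and 14 higher in body. Of all 19061 tested loci 24.3% are called, 9.73% higher in head and 14.6% higher in body, and nothing is read from the members' larger share because the rule chose them on the same contrast. Of the head-high loci 11 of 20 are called, of the body-high loci 11 of 18, and of the other loci 4 of 17. A called head-high and a called body-high locus stand together in 8 of the 17 genes, and in 6 genes both loci of the opposite pair are called. A further gene, TRINITY_DN11309_c0_g1, has calls in both directions, but its call toward body is on a locus under the level limit and neither of its body-high loci is called. Of the remaining 8 genes, 6 have calls in one direction and 2 have none. Outside the first 8 genes the label of opposite bias rests in at least one direction on the FPKM values alone. Among the other 2992 genes of 2 to 6 loci, 20 (0.668%) have calls in both directions. The q rests on 2 libraries a tissue, and the labels do not say that the pools were of independent larvae, so it may measure technical spread.

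The 9 genes with calls in both directions come first. TRINITY_DN10522_c1_g8 has 2 loci on 2 contigs. XLOC_001862, on bases 8 to 1253 of its contig i1, had 47.5 FPKM in head against 2.07 FPKM in body, a difference of 3.98 at q = 0.00146 in the authors' deposited table. XLOC_001863, on bases 1 to 1722 of contig i3, had 5.52 FPKM in head against 106 FPKM in body, a difference of -4.04 at q = 0.00041 in the authors' deposited table. The folds were almost mirror images, 22.9 and 19.3. One contig held 89.6% of the gene's summed FPKM in head and the other 98.1% in body.

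TRINITY_DN12973_c4_g2 has 4 loci, 3 of them higher in head and 1 higher in body, and 3 of the 4 are listed at 0 in one tissue. XLOC_013752, on bases 2963 to 3606 of contig i3, had 10.3 FPKM in head and was listed at 0 in body. XLOC_013754, on bases 3724 to 4142 of contig i8, was listed at 0 in head and had 34.0 FPKM in body. Both are called, at q = 0.00041 in the authors' deposited table, the lowest q of any member locus. The locus on contig i5 had 4.90 FPKM in head and 0 in body and is called as well, while that on i9, with 3.75 FPKM in head against 0.369 FPKM in body, is not. These are low levels: if 0 is read as fewer than 3 fragments over both body libraries, the locus on i3 was at least 6.99-fold lower in body and that on i5 at least 9.73-fold lower.

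TRINITY_DN10822_c0_g1 has 3 head-high contigs against 1 body-high contig. The longest of its 4 loci, 1294 bases on contig i6, had 9.68 FPKM in head against 119 FPKM in body and is called. The 3 shorter loci went the other way. The 600-base locus on i2 had 68.6 FPKM in head against 2.11 FPKM in body, and the 505-base locus on i4 had 191 FPKM in head against 3.52 FPKM in body. The 318-base locus on i9 had 155 FPKM in head and was listed at 0 in body. Of these 3 only the last is called. The loci on i2 and i4 have folds of 32.5 and 54.2 at q = 0.164 and 0.0628 in the authors' deposited table, so a large fold did not bring a call.

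In TRINITY_DN11309_c0_g1 the opposite levels came from contigs with almost the same span. Its 4 loci start at base 19 to 26 of their contigs and are 1122 to 1130 bases long. Contig i5 had 44.2 FPKM in head against 3.55 FPKM in body. The 3 others were higher in body: i1 had 0.387 FPKM in head against 40.8 FPKM in body, i3 had 0.674 and 11.7 FPKM, and i2 was listed at 0 in head with 8.67 FPKM in body. Contig i5 held 97.7% of the gene's FPKM in head, and the 3 others together held the rest there and most of it in body. Only i5 and i2 are called, and i2, under 10 FPKM, is not body-high by the rule; i2 was at least 26.2-fold lower in head by the limit of 3 fragments. How the 4 contigs differ in sequence was not analysed here.

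TRINITY_DN12163_c0_g1 has 2 head-high loci and 1 body-high locus. The 1585-base locus on i1 had 34.4 FPKM in head against 4.43 FPKM in body, and the 1334-base locus on i4 had 3.42 FPKM in head against 36.6 FPKM in body. Both are called, in opposite directions. A short locus of 304 bases on i2 had 119 FPKM in head against 8.24 FPKM in body and is not called (q = 0.108 in the authors' deposited table).

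TRINITY_DN12737_c0_g4 has loci of different bias on one contig. On i3 the locus at bases 13 to 2377 had 21.0 FPKM in head against 163 FPKM in body, and is called. After a gap of 906 bases without a locus, the locus at bases 3284 to 4503 of the same contig had 49.8 FPKM in head against 15.5 FPKM in body. This downstream locus was 3.21-fold higher in head, under the fold limit of 4, and is not called (q = 0.157 in the authors' deposited table). The head-high locus of the gene, 450 bases on contig i2, had 17.03 FPKM in head, was listed at 0 in body and is called.

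TRINITY_DN12169_c2_g1 has 2 long loci of opposite direction. Contig i3, with a locus of 2711 bases, had 75.2 FPKM in head against 12.2 FPKM in body. Contig i1, with a locus of 1762 bases, had 18.0 FPKM in head against 306 FPKM in body. Each is called, and neither tissue is near 0 for either locus.

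TRINITY_DN11904_c1_g1 has a head-high locus that is also well expressed in body. Its 411-base locus on i1 had 230 FPKM in head against 49.6 FPKM in body, and its 885-base locus on i4 had 7.12 FPKM in head against 88.9 FPKM in body. Both are called. The 473-base locus on i2 had 7.83 and 5.71 FPKM in the same order, a difference of 0.40 that is not called. TRINITY_DN11275_c1_g2 has a body-high locus of very high level. Its 2495-base locus on i1 had 15.7 FPKM in head against 3.05 FPKM in body, while its 1058-base locus on i2 had 2.36 FPKM in head against 2253 FPKM in body, and both are called. A 289-base locus on i4 had 2.57 FPKM in head against 4174 FPKM in body, a 1621-fold difference that is not called (q = 0.373 in the authors' deposited table).

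In 6 genes the calls go one way only. In TRINITY_DN12433_c0_g1 the 2927-base locus on i1 had 30.7 FPKM in head against 0.397 FPKM in body, a fold of 77.2 at q = 0.0682 in the authors' deposited table. A 360-base locus on i12 was listed at 0 in head with 22.1 FPKM in body and is called. Its 2 other loci were close to balance, 16.8 against 15.7 FPKM on i5 and 9.21 against 6.61 FPKM on i10, head first. The loci on i10 and i12 differ by 5 bases in length and in their levels in head and in body.

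TRINITY_DN12601_c3_g2 has the most loci of the set, 5, and 4 of them are 258 to 346 bases long. The locus on i5 had 171 FPKM in head against 33.4 FPKM in body and is called. That on i7 had 1.64 FPKM in head against 24.6 FPKM in body, and is not called. The loci on i3 (80.7 and 99.5 FPKM, head first), i6 (23.8 and 30.0 FPKM) and i12 (2.92 and 2.19 FPKM) lay within 1.34-fold of balance, and the last was not tested by the authors. TRINITY_DN10574_c4_g1 has a 475-base locus on i2 that was listed at 0 in head with 41.0 FPKM in body and is called. Its 780-base locus on i5 had 16.4 FPKM in head against 2.65 FPKM in body, at q = 0.0602 in the authors' deposited table, and its locus on i4 had 7.73 FPKM in head against 2.70 FPKM in body. TRINITY_DN12083_c2_g1 has 2 loci. The 1545-base locus on i5 had 12.2 FPKM in head against 1.48 FPKM in body and is called, and the 1194-base locus on i1 had 0.400 FPKM in head against 14.6 FPKM in body and is not.

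The remaining 2 of these 6 genes hold their opposite pair beside a more abundant locus that was higher in body. In TRINITY_DN11924_c0_g1 the locus on i8 had 92.6 FPKM in head against 339 FPKM in body and is called. The opposite pair was low, with 12.9 and 3.17 FPKM on i5 and 5.26 and 22.2 FPKM on i7, head first, and neither is called. The locus on i9 had 9.49 FPKM in head against 5.10 FPKM in body. In TRINITY_DN12661_c0_g4 the 248-base locus on i5 had 2154 FPKM in head against 7419 FPKM in body and the locus on i4 had 174 and 698 FPKM, and both are called. Its head-high locus on i3 had 11.8 FPKM in head against 2.22 FPKM in body, is not called, and held 0.506% of the gene's FPKM in head.

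No locus is called in the last 2 genes. TRINITY_DN12867_c1_g2 had 0.322 FPKM in head against 122 FPKM in body on i15, a fold of 379 at q = 0.391 in the authors' deposited table. On i18 it had 23.5 FPKM in head against 1.80 FPKM in body, at q = 0.0717 in the authors' deposited table, and on i4 it had 15.0 and 7.47 FPKM. TRINITY_DN11557_c3_g3 had 12.7 FPKM in head against 1.78 FPKM in body at bases 2841 to 3640 of i5, and 4.85 and 2.05 FPKM at bases 41 to 2587 of the same contig. On i12 it had 1.63 FPKM in head against 11.8 FPKM in body. Its opposite loci are close in length, 800 and 821 bases.

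**Figure D2:**
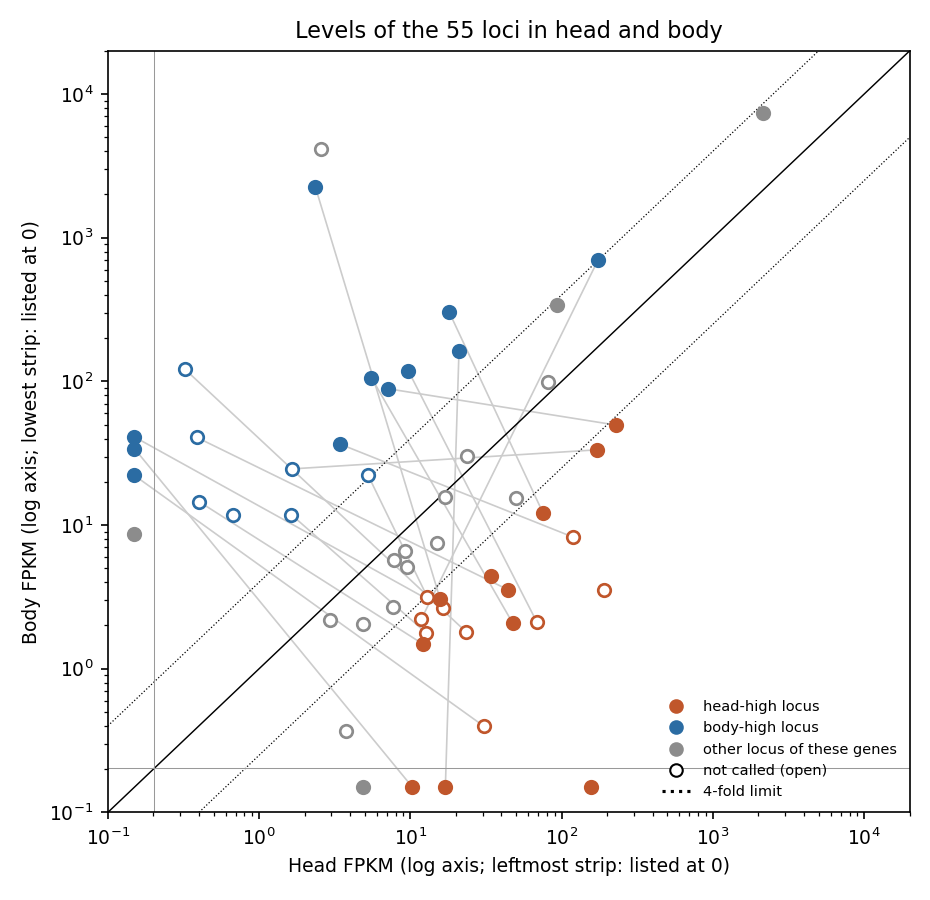
Head FPKM (horizontal, log axis) against body FPKM (vertical, log axis) for the 55 loci, with values listed at 0 in the outer strips; grey lines join the opposite pair of each gene, the solid diagonal marks equal levels and the dotted lines the 4-fold limit. Filled points have an authors' q under 0.05. The 7 body-high loci that are not called have 0.322 to 5.26 FPKM in head.

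All 8 member loci listed at 0 in one tissue are called, whereas loci with a few fragments in the lower tissue mostly are not. Each of the 8 has the lowest q of any member locus, 0.00041 in the authors' deposited table, whatever its level, so this q does not rank them. It is not particular to loci listed at 0. Other member loci above 0 in both tissues share it, both loci of TRINITY_DN12169_c2_g1 among them. Low values in the table fall on steps that show the worth of 1 fragment, and on the deposited scale head was 2.15 times as deep as body, so the same low level rests on fewer fragments in body. For the 37 member loci of 600 bases or more, fragments were estimated from these steps. In 18 loci the lower tissue held 10 fragments or more, and 13 of these are called. In 16 it held fewer than 10 but was above 0, and 2 of these are called. In the last 3 it was listed at 0, and all 3 are called. TRINITY_DN12867_c1_g2 is an example: the locus on i15 had about 1024 fragments in body and 5.80 in head, and is not called. The locus on i3 of TRINITY_DN12737_c0_g4 with the higher level in body had about 1622 fragments in body and 447 in head, and is called with a much smaller fold. The part that fragment number has in the calls was not tested. Of all tested loci, whatever their fragments, 24.3% are called. Among the other genes of 2 to 6 loci, 577 loci are listed at 0 in head and 300 in body. The shares called among all loci at 0, or with few fragments, are not given here. The counts above are therefore not read as a trait of the members.

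**Figure D3:**
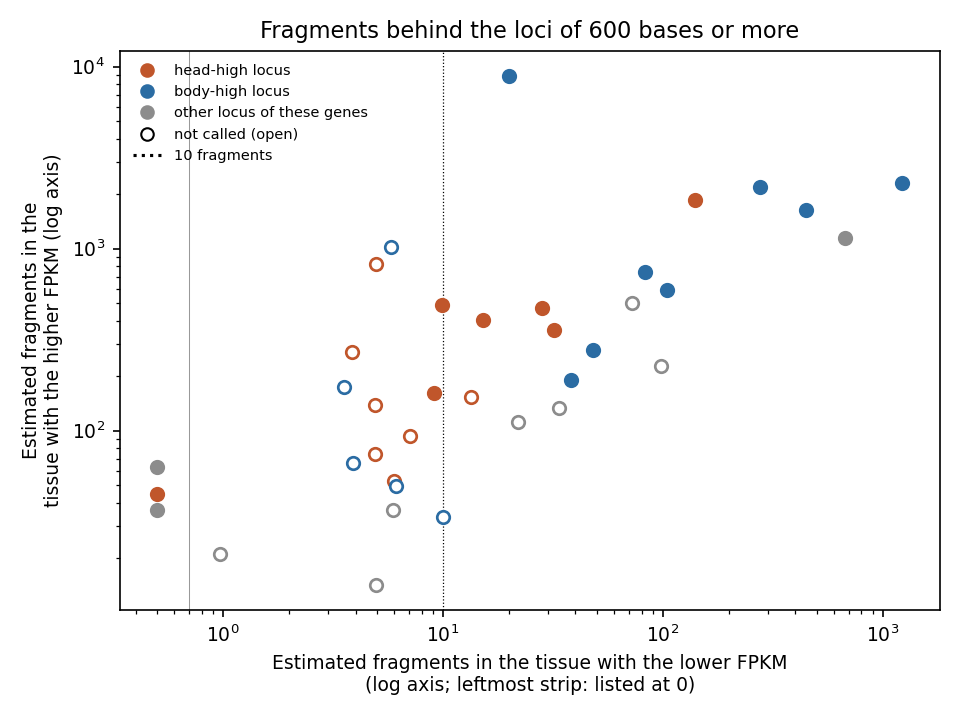
Estimated fragments in the tissue with the lower FPKM (horizontal, log axis, with values of 0 in the left strip) and in the other tissue (vertical, log axis) for the 37 member loci of 600 bases or more. Filled points are called by the authors; right of the dotted line at 10 fragments 13 of 18 are called, left of it 2 of 16 above 0, and all 3 at 0.

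The mix of loci differed between head and body in most of these genes. The share of a gene's summed FPKM that would have to move between loci to turn the head mix into the body mix had a median of 76.1% (quartiles 59.5% and 88.5%), against 12.6% in 2835 other genes of 2 to 6 loci with a level above 0 in both tissues. The locus with the highest FPKM was not the same in head and body in 15 of 17 genes (88.2%), against 832 (29.3%) of those others. With only loci of 300 bases or more it was 14 genes, since the leading locus of TRINITY_DN12601_c3_g2 in body has 258 bases. The members were chosen on these levels, so the contrast with other genes is a description. The leading locus held a median of 75.9% of the gene's FPKM in head and 90.8% in body. With loci of all lengths, the 2 exceptions were TRINITY_DN11924_c0_g1 and TRINITY_DN12661_c0_g4, where 16.4% and 1.17% of the mix moved. In those 2 genes one locus led in head and in body alike. In TRINITY_DN12737_c0_g4, where 67.4% of the mix moved between loci, the leading loci of head and body lie on the same contig, i3. Its other contig, i2, held only 19.4% of the gene's FPKM in head and was listed at 0 in body, so i3 led in both tissues.

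**Figure D4:**
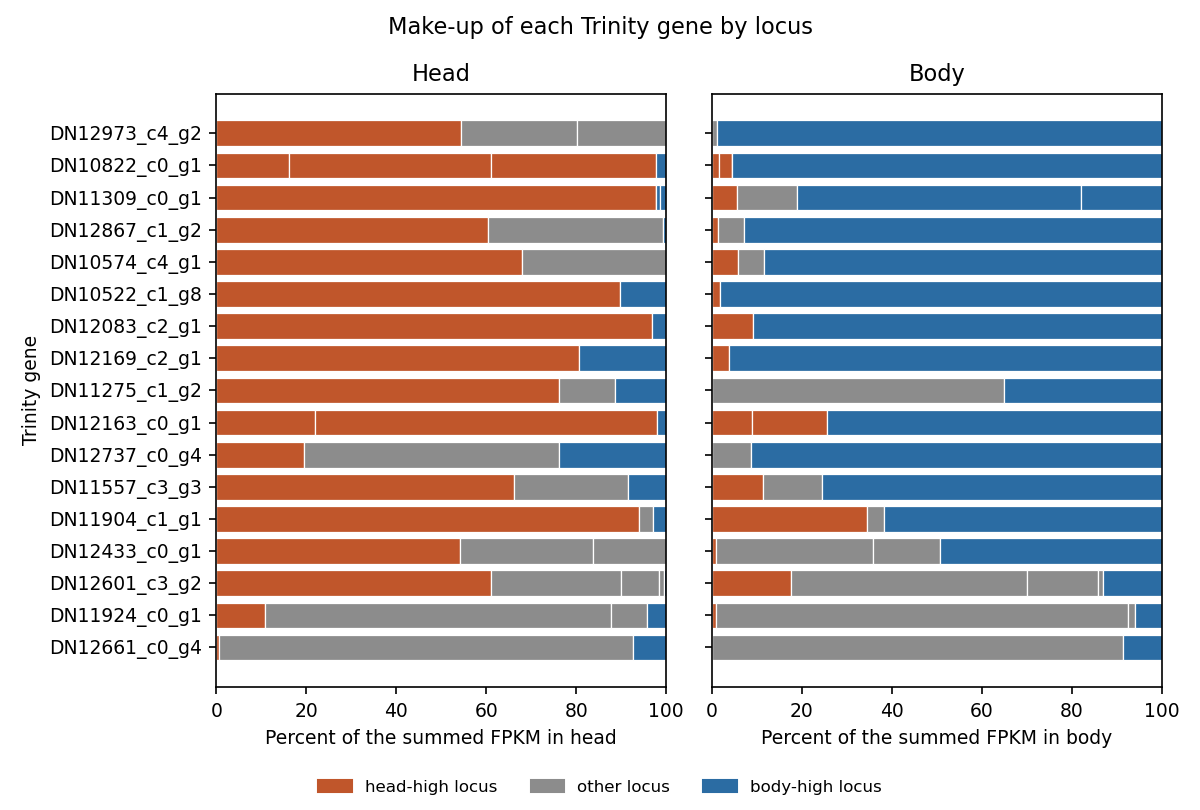
Percent of each gene's summed FPKM held by each of its loci in head (left) and body (right), for the 17 Trinity genes ordered by how far the mix moved, from 1.17% at the bottom to 98.9% at the top. Orange segments are head-high, blue body-high and grey other loci; in TRINITY_DN11924_c0_g1 and TRINITY_DN12661_c0_g4, at the bottom, a grey locus leads in both tissues.

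Summed over its loci, a gene could look balanced although its contigs did not. On the log2(FPKM + 1) scale the summed level differed by less than 2-fold in 8 of 17 genes (47.1%), against 43.6% of the other genes of 2 to 6 loci. It was at least 2-fold higher in body in 7 genes and in head in 2. Among the other 2992 genes it was so in body in 972 and in head in 716. In TRINITY_DN11557_c3_g3 the sums were 19.2 FPKM in head against 15.6 FPKM in body, and in TRINITY_DN12433_c0_g1 they were 56.7 and 44.8 FPKM. TRINITY_DN11309_c0_g1, with 45.2 FPKM in head against 64.7 FPKM in body, was a further case in which an almost complete change of contigs (92.2% of the mix) left the sum within 2-fold. The widest gap was in TRINITY_DN11275_c1_g2, with 20.7 FPKM in head against 6430 FPKM in body. The median difference of the sums was -0.83 over the members, toward body, and -0.14 over the others. Over the members it was -0.29 with equal upper quartiles, a rescaling that moved the median of all loci by 0.50. The median of the others was not recalculated on that scale, so -0.29 cannot be compared with -0.14.

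**Figure D5:**
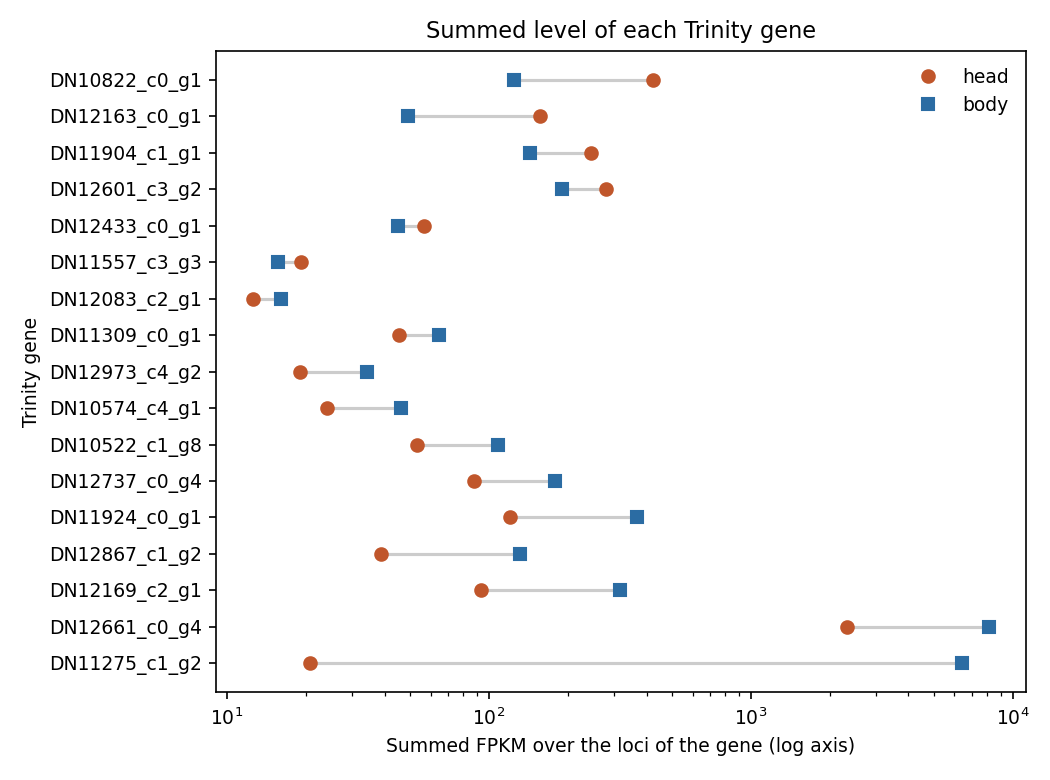
Summed FPKM over all loci of each of the 17 Trinity genes (horizontal, log axis) in head (orange circles) and body (blue squares), ordered by their ratio. The sums are within 2-fold in 8 genes, and TRINITY_DN11275_c1_g2, at the bottom, has 20.7 FPKM in head and 6430 in body. A 289-base locus that is not called holds 64.9% of the latter.

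Length did not separate the sides. In the opposite pairs the head-high locus was the longer one in 9 genes and the body-high locus in 8. Median lengths were 796 bases (304 to 2927) on the head side and 1058 bases (346 to 2365) on the body side. In 3 genes, TRINITY_DN11309_c0_g1, TRINITY_DN11557_c3_g3 and TRINITY_DN12601_c3_g2, the lengths lay within 10% of each other. In the others they differed more, down to TRINITY_DN12433_c0_g1, where the body-high locus was 12.3% as long as the head-high one. FPKM divides by length less about 201 bases, so the values of the shortest loci are the least certain, and reads that match several contigs of a gene could be divided among them in ways that the sources used here do not give. Fewer cells of a type and less RNA per cell cannot be told apart in these pooled tissues.

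The rule did not use other Trinity genes of the same assembly component, the larger group from which Trinity derives its genes. In 13 of 17 cases the component held further Trinity genes, 49 in all, with 58 loci. The authors' deposited table calls 14 of their 52 tested loci (26.9%), 6 higher in head and 8 higher in body, a share near the 24.3% of all tested loci. One of these neighbours has the same pattern at a lower level: in TRINITY_DN12083_c2_g2 contig i1 had 21.3 FPKM in head against 291 FPKM in body, and contig i2 had 8.05 FPKM in head against 1.15 FPKM in body. Both are called, and the gene is no member because the head level of i2 is under 10 FPKM. It lies in the component of the member TRINITY_DN12083_c2_g1, and was singled out after its values were seen. In component DN12737_c0, contig i1 of TRINITY_DN12737_c0_g2 had 45.4 FPKM in head against 1.88 FPKM in body, and contig i2 of TRINITY_DN12737_c0_g6 was listed at 0 in head with 221 FPKM in body. Both are called, in opposite directions, and they too were singled out after their values were seen. This is 1 of 2 components with head-high and body-high neighbours, the other being DN11904_c1. There contig i2 of TRINITY_DN11904_c1_g8 had 10.5 FPKM in head against 1.13 FPKM in body and is not called. Contig i1 of TRINITY_DN11904_c1_g5 was listed at 0 in head with 19.1 FPKM in body and is called.

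The limits of the rule cut through a continuous range. Just inside the fold limit was TRINITY_DN12661_c0_g4, whose pair has a smaller fold of 4.02, and just outside was TRINITY_DN12125_c1_g5, with 3.82. In the latter one contig had 21.8 FPKM in head against 5.72 FPKM in body and another was listed at 0 in head with 31.1 FPKM in body. At the level limit, TRINITY_DN12973_c4_g2 was inside with 10.3 FPKM and TRINITY_DN10816_c0_g4 outside with 9.49 FPKM, both in head.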

How the data were processed

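Expression in larval heads and bodies was taken from one table deposited by the authors. TopHat and Cufflinks made it, per the submitters' processing notes, with no version given, and its columns are those of Cuffdiff, per the file headers. Values are the authors' FPKM, 1 per tissue, with the authors' deposited test statistic (a score, not used), p-value and q-value. Head was taken as the first and body as the second value, per the file headers, and no gene of known tissue was available to check this. Not given in the sources used here are aligner settings, the treatment of reads that match several contigs, and the scaling of one tissue to the other. Trizol RNA and an Illumina TruSeq kit were used, per the labels' protocols.

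Trinity genes were read from contig names. Starts, counted from 0 in the file, are given from 1. Because there is no value per library, no test was added, and calls are the authors' q under 0.05. Fragments were estimated, in loci of 600 bases or more, from the lowest steps of FPKM × length less 201 bases, in kb, which were 0.0883 and 0.119 in head and 0.210 and 0.226 in body, 1 for each library. They are approximate, and the limit of 3 fragments for a value of 0 covers counting error only. How many reads were sequenced is unknown. The members and lists were chosen with earlier results of these data known. The rule for naming took genes with calls in both directions (at most 8, by the smaller difference), 3 others by level, those with the fewest and most loci, and those next to the limits. It gave 12 members, and the other 5 are described so that every member is accounted for. Locus identifiers are printed for 2 loci per direction. The selection was checked on a simulated table without counting noise, which shows only that the rule was applied as written. That check says nothing of genes selected through noise. The fragment steps were checked on simulated counts. Alternatives were other limits of fold, level, length and q, other scalings and pseudocounts, and leaving out loci listed at 0. Calculations used Python 3.11.15, numpy 2.4.6, pandas 2.3.3 and matplotlib 3.10.9.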

Additional observations from a re-analysis of the deposited data

How the results depend on the processing

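The number of Trinity genes with opposite loci depended on the limits. Against 17 genes, a fold limit of 2 gave 68, a fold of 8 gave 8, a level of 20 FPKM gave 9, and lengths of at least 200, 500 and 600 bases gave 29, 10 and 10. A level of 5 FPKM gave 25, and leaving out loci listed at 0 gave 13, all among the 17. No upper limit on the number of loci, a setting added after seeing the data, gave 23. Equal sums on the TPM scale gave 4, where the level limit of 10 is stricter because TPM values are smaller; with equal sums kept on the FPKM scale, added after seeing the data, there were 22, of which 15 were among the 17. With equal upper quartiles there were 25, of which 14 were among the 17. Either rescaling turned the direction of 2 of the loci that are neither head-high nor body-high. The head-high and body-high loci could not turn, since they differ at least 4-fold. Genes with calls in both directions numbered 9 at a q of 0.05 and at 0.01, and 5 without loci listed at 0, a setting added after seeing the data. The median difference of summed levels (-0.83) was -0.72 with a pseudocount of 5, -0.35 with loci weighted by length, -0.29 with equal upper quartiles and -0.39 on the TPM scale. The leading locus's median share in body (90.8%) was 83.7% with loci weighted by length. The counts of called loci stayed within 1.5 times at a q of 0.01, without loci listed at 0 and in loci of 500 bases or more. No paired analysis was possible because each tissue has a single value, and for the same reason leaving out a replicate was not run. Body values are the less finely resolved, as head was 2.15 times as deep.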
